A study of Mus musculus with 6 samples.

Results

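The genes described here encode 9 kinases and kinase-like proteins of the secretory pathway: Fam69a, Fam69b and Fam69c, Fam20a, Fam20b and Fam20c, Fjx1, Pomk and Pkdcc. They were chosen by name, and each matched 1 of the 54532 rows of the expression table. The RNA was taken from cerebral cortex, at an age of 12 months, with 3 wild-type (WT) libraries and 3 labelled as a knockout (KO) of Fam69c, written Fam69c-/- in the design. Strain and sex of the mice, the way the allele was made, any pooling of animals and any treatment do not appear in the labels. The tissue label names the cortex without region, and all cell types of the tissue contribute to a library. The title of the series concerns stress granules and inflammasome activation, and this comparison asks whether RNA of the targeted gene and its relatives differed between the genotypes.

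Secretory pathway kinases enter the endoplasmic reticulum as they are made and act in its lumen, in the Golgi apparatus or outside the cell. Substrates of members of this group include secreted proteins, membrane proteins and sugar chains. Fam20c is the Golgi casein kinase, which phosphorylates serines of many secreted proteins, and Fam20a is a pseudokinase that binds Fam20c and raises its activity. Fam20b phosphorylates xylose in the sugar that links chains to proteoglycans, Pomk phosphorylates mannose on dystroglycan, and Fjx1 is the mammalian relative of four-jointed, the fly kinase of Fat and Dachsous cadherins. Pkdcc is a secreted tyrosine kinase, and the Fam69 proteins (also called Dipk1a, Dipk1b and Dipk1c) are kinase-like proteins that are anchored in the endoplasmic reticulum membrane.

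Since relatives with near-identical RNA could share reads, the coding sequences were compared first. Over the 36 pairs of the 9 genes, aligned coding bases were between 54.9% and 65.8% identical, and the longest run without a mismatch was 17 bases, between Fam20a and Fam20c. Between Fam69a and Fam69b it was 12 bases, between Fam69a and Fam69c 12, and between Fam69b and Fam69c 13. In pairs from different families it reached 13 bases as well. The 60 coding bases around the runs of Fam69a with Fam69b and of Fam20a with Fam20c are shown 5′ to 3′ on the coding strand. They come from GENCODE release M21 transcripts, with the shared run in capitals, and hold the longest identical coding run of each of these pairs.
Fam69a: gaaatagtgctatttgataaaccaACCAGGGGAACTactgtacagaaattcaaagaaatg
Fam69b: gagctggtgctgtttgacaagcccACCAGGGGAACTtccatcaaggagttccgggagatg
Fam20a: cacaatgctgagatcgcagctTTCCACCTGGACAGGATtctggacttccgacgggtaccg
Fam20c: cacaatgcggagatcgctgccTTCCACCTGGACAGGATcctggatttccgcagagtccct
In mm10 the Fam69a stretch lies at chr5:107911630-107911689 (minus strand) and that of Fam69b at chr2:26635086-26635145 (plus strand), each in coding exon 4 of 5. The Fam20a stretch spans an intron at chr11:109677862-109678390 (minus strand), from coding exon 5 to 6 of 11. The Fam20c stretch spans one at chr5:138793245-138795018 (plus strand), from coding exon 4 to 5 of 10. Of the 60 bases, 42 match between Fam69a and Fam69b and 50 between Fam20a and Fam20c. No run of 50 bases in the transcripts of any of the 9 genes occurred in another of the 9, on either strand.

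On mm10, as deposited, Fam69a (ENSMUSG00000029270) runs from 107908053 to 107987085 on chromosome 5 and Fam69b (ENSMUSG00000036186) from 26628457 to 26636497 on chromosome 2. Fam20a, Fam20b and Fam20c (ENSMUSG00000020614, ENSMUSG00000033557, ENSMUSG00000025854) lie on chromosome 11 (109669749 to 109722279), chromosome 1 (156678532 to 156719086) and chromosome 5 (138754514 to 138810077). Pomk (ENSMUSG00000037251) lies on chromosome 8 (25980604 to 25994133) and Pkdcc (ENSMUSG00000024247) on chromosome 17 (83215292 to 83225070). Other genes overlap 4 of the 9. Exons of Fam69a share 953 of 2892 bases with Rpl5, a ribosomal protein gene on the other strand, and exons of Fam69c share 343 of 2662 bases with D030046N08Rik, a noncoding gene on the other strand. Fam69b shares 516 of 2476 bases with Gm20532 on the same strand, which was named after its values were seen. Fam20b shares 400 of 8770 bases with Gm19918 on the other strand, and these are the whole of that model. Gm20532 and Gm19918 are listed at 0 in 6 of 6 libraries, so no read of the shared bases was assigned to either. Recovered reads were whole numbers in 100% of cases, so the values show no splitting of reads into fractions between genes. Whether reads of shared bases were counted for the kinase gene or dropped is not stated in the labels. If all were dropped, the mean level per counted base would be 10.6 FPKM instead of 7.08 FPKM for Fam69a, 22.7 instead of 17.95 FPKM for Fam69b, 2.0 instead of 1.75 FPKM for Fam69c, and 13.0 instead of 12.4 FPKM for Fam20b. For Fam69a that would move the level above those of Fam20c and Pomk. If reads of the other gene were counted for the kinase gene, its level would instead be overstated. Rpl5 had 5033 to 5380 reads per library against 632 to 740 for Fam69a, and this case was not tested.

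Levels are given in FPKM, read counts scaled by gene length and by library depth, so genes of different length can be set side by side. All 9 genes were above a mean of 0.5 FPKM, the filter that 15694 genes passed. In mean level over the 6 libraries the order was Fjx1 at 29.1, Fam69b at 17.95, Fam20b at 12.4, Pomk at 8.82, Fam20c at 7.54, Fam69a at 7.08, Fam20a at 3.67, Pkdcc at 3.56 and Fam69c at 1.75 FPKM. The highest mean was 16.7 times the lowest. Ranges of neighbours in this order did not overlap, except that Fam20c was above Fam69a in 5 of 6 libraries and Fam20a above Pkdcc in 4 of 6. Fjx1 stood at the 89.1 percentile of the genes that passed the filter and Fam69c at the 25.5 percentile. Thus the gene targeted in this study had the least RNA per length of the 9 in every library.

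**Figure D1:**
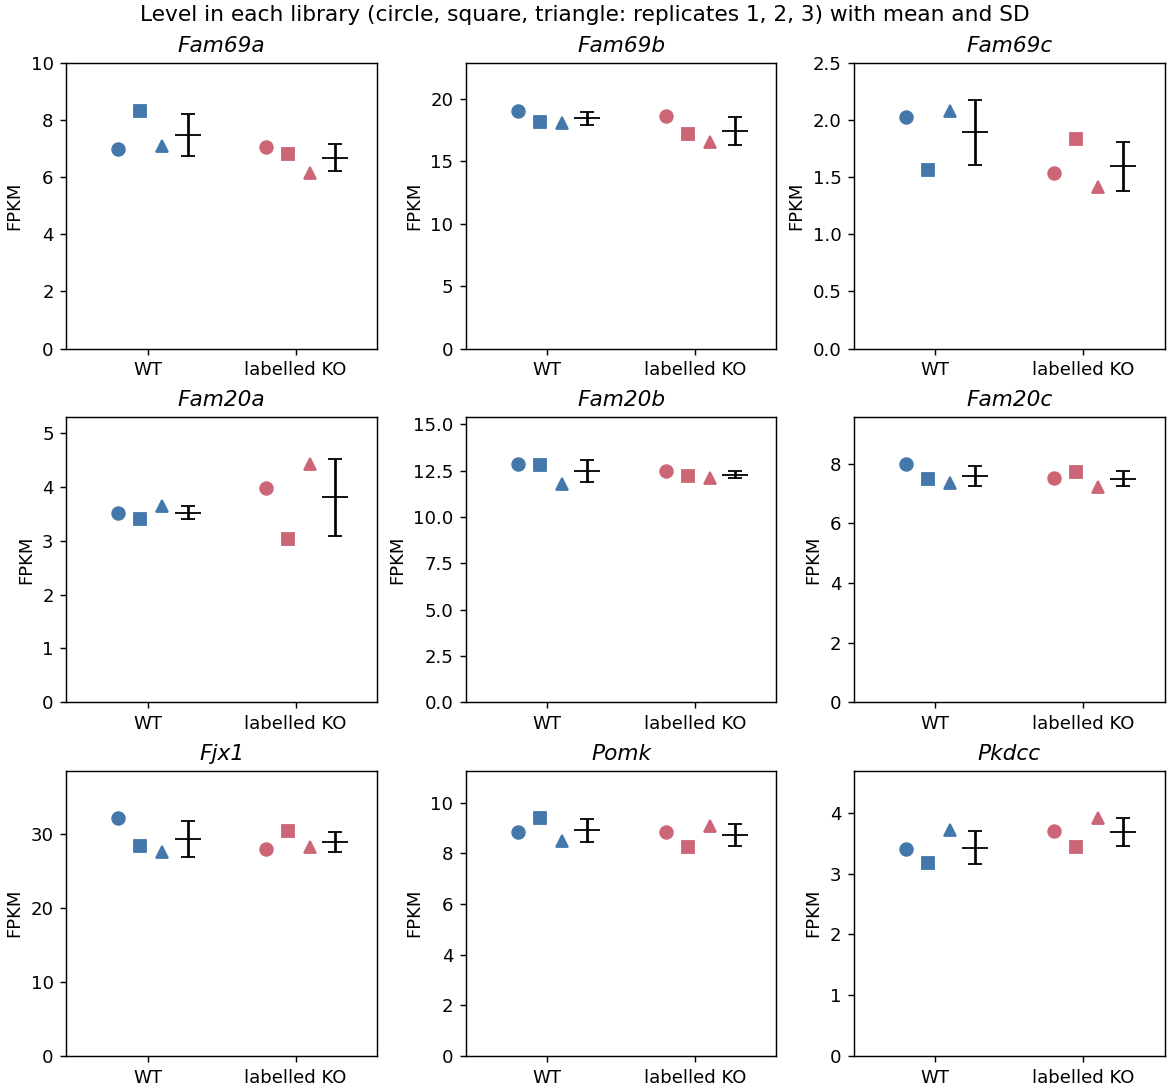
Each panel plots 1 gene's FPKM (vertical axis, from 0) in the 3 WT and the 3 libraries labelled KO, with circles, squares and triangles for replicates 1, 2 and 3 and a bar for the mean with its SD. The groups overlap in all 9 panels, with Fam69c between 1.42 and 2.08 FPKM.

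Reads recovered from the values, summed over genes, ran from 30935326 to 35065884 in the 6 libraries. Nothing in the labels states that libraries came from separate animals, so p-values measure the spread between libraries only. Cortical excitatory neuron markers were present in every library, with a summed level from 397 to 427 FPKM. Striatum genes, which mark a neighbouring region, summed to 145 FPKM in WT replicate 3 and 199 FPKM in replicate 1 labelled KO, against 329 to 428 FPKM in the other 4. Choroid plexus genes summed to between 3.53 and 4.65 FPKM over WT and between 4.71 and 10.3 FPKM in the libraries labelled KO, and this difference lay in Ttr alone, the only one of 6 past the filter. Ttr stood at 2.10, 3.10 and 2.79 FPKM over WT replicates 1 to 3, and 8.91, 7.58 and 3.50 FPKM over replicates 1 to 3 labelled KO, while the groups overlapped for each of the other 5. Of the 8 striatum genes and the 6 choroid plexus genes 0 were at 0 in any library. Without both libraries low in striatum genes, 0 of the 9 kinase genes passed the test, the log2 fold change of Fam69c was -0.11, and Fam69b had an unadjusted p of 0.0444 at -0.14 (limma adjusted p = 0.363). The part of choroid plexus RNA in the values below was not tested.

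None of the 9 genes passed the test between the groups (limma with Benjamini-Hochberg adjustment over 15694 genes, threshold 0.05). The adjusted p was 0.999 for each. The background was the same, with 0 of 15694 genes past the threshold (0%). At an unadjusted p under 0.05, 0 of the 9 genes were called, where the share over all genes was 3.82% (2.19% lower in KO). That share rests on 599 genes, a number that ran from 426 (without replicate 2 labelled KO) to 1023 (without WT replicate 3) with 1 library left out, was 901 without replicate 1 labelled KO, and was 2092 without WT replicate 3 and replicate 1 labelled KO together. The groups overlapped in 9 of 9 genes, where 8.87% of all genes had groups that did not overlap (4.7% lower and 4.17% higher in KO). Fold changes below are on the log2(FPKM + 0.5) scale, which understates those of low genes such as Fam69c. Of the 9, 7 had an estimate below 0 in the libraries labelled KO and 2 above it, with a median of -0.02, and over all genes 52% were below 0 with a median of -0.00417.

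Fam69c stood at 2.03, 1.57 and 2.08 FPKM over WT replicates 1 to 3, and 1.54, 1.84 and 1.42 FPKM over replicates 1 to 3 labelled KO. Means of WT and KO-labelled libraries were 1.89 ± 0.285 and 1.597 ± 0.216 FPKM (SD, n = 3 each). WT replicate 2 lay among the libraries labelled KO, and replicate 2 labelled KO lay above it. These levels rest on 169, 128 and 184 WT reads and on 139, 163 and 135 KO-labelled reads, the fewest of the 9 genes. KO minus WT came to -0.19 in log2 units (standard error 0.13), 95% interval -0.49 to 0.11, which as a ratio of FPKM + 0.5 runs from 0.714 to 1.08 (limma adjusted p = 0.999). The added 0.5 draws this ratio towards 1 for so low a gene, and with 0.1 added instead the estimate was -0.23. The two-sided exact permutation test of 3 against 3 libraries gave p = 0.2, where 0.1 is the smallest it can give. Reads of Fam69c were present in all 3 libraries labelled KO, so this table does not show the loss of its RNA, and with 1 value per gene it cannot show the loss of single exons. In bulk tissue fewer cells of a type and less RNA per cell cannot be told apart, for this gene and those below.

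The deposited Fam69c model starts at 84720019 on chromosome 18 (mm10, plus strand) and ends at 84740436. In GENCODE M21 the gene starts earlier, at 84719236, because of 1 transcript with a retained intron. The exons of the other 6 transcripts add up to 2662 bases, which is the deposited length. D030046N08Rik, the gene on the other strand at its start, stood at 0.612, 0.353 and 0.461 FPKM over WT replicates 1 to 3, and 0.958, 0.420 and 0.480 FPKM over replicates 1 to 3 labelled KO, from 17 to 51 reads. Its highest library was replicate 1 labelled KO, where Fam69c was lower than in replicate 2. The log2 fold change of D030046N08Rik was 0.18 with a 95% interval from -0.33 to 0.68 (limma adjusted p = 0.999). Reads of both genes together were 199, 145 and 208 over WT, against 190, 185 and 162 over those labelled KO, so they overlapped as well.

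Fam69a stood at 6.995, 8.34 and 7.11 FPKM over WT replicates 1 to 3, and 7.06, 6.83 and 6.15 FPKM over replicates 1 to 3 labelled KO. Group means were 7.48 ± 0.744 and 6.68 ± 0.473 FPKM (SD, n = 3 each). WT replicate 2 was highest and replicate 3 labelled KO lowest, while replicate 1 labelled KO lay between WT replicates 1 and 3. On the log2 scale KO minus WT was -0.15, 95% interval -0.35 to 0.05 (limma adjusted p = 0.999), the smallest unadjusted p of the 9 genes at 0.122. Without WT replicate 2 the estimate was -0.075 (unadjusted p = 0.377, limma adjusted p = 1.00). Rpl5, which shares 33.0% of the Fam69a exon bases, stood at 43.7, 44.3 and 38.7 FPKM over WT replicates 1 to 3, and 40.5, 38.7 and 37.7 FPKM over replicates 1 to 3 labelled KO, with a log2 fold change of -0.11 and a 95% interval from -0.27 to 0.04 (limma adjusted p = 0.999). Both genes were highest in WT replicate 2 and lowest in replicate 3 labelled KO. The part of Rpl5 reads in the Fam69a values was not tested.

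Fam69b stood at 19.1, 18.2 and 18.1 FPKM over WT replicates 1 to 3, and 18.7, 17.2 and 16.5 FPKM over replicates 1 to 3 labelled KO. As means these are 18.5 ± 0.533 and 17.4 ± 1.10 FPKM (SD, n = 3 each). Replicates 2 and 3 labelled KO lay below every WT library and replicate 1 lay within the WT range. KO minus WT came to -0.08 in log2 units, 95% interval -0.22 to 0.06 (limma adjusted p = 0.999). Summed over the Fam69 genes, the level was 28.1, 28.1 and 27.3 FPKM over WT replicates 1 to 3, and 27.3, 25.8 and 24.1 FPKM over replicates 1 to 3 labelled KO (27.30 in WT replicate 3 against 27.26 in replicate 1 labelled KO). The exact permutation test gave p = 0.1 for the Fam69 sum, the smallest it can give, and 0.4 for the sum of all 9 genes. That p of the Fam69 sum was the lowest among the sums and ratios tested, and none of these was planned. For Fam69a, Fam69b and Fam69c alone the permutation test gave p = 0.2, 0.3 and 0.2. Among single genes, 8.87% of all those tested had groups that did not overlap. The sums of the Fam20 genes and of all 9 genes overlapped between the groups. Fam69b made up 66.3% ± 1.56 of the Fam69 sum in WT and 67.8% ± 1.19 in the libraries labelled KO (SD, n = 3 each), and Fam69c 6.81% ± 1.09 and 6.21% ± 0.782. The share of Fam69c ran from 5.58% to 7.63% in WT and from 5.65% to 7.11% in the libraries labelled KO, so the groups overlapped in share as in level. Estimates of all 3 Fam69 genes stayed below 0 under each of 18 other settings of the analysis, without passing in any.

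**Figure D2:**
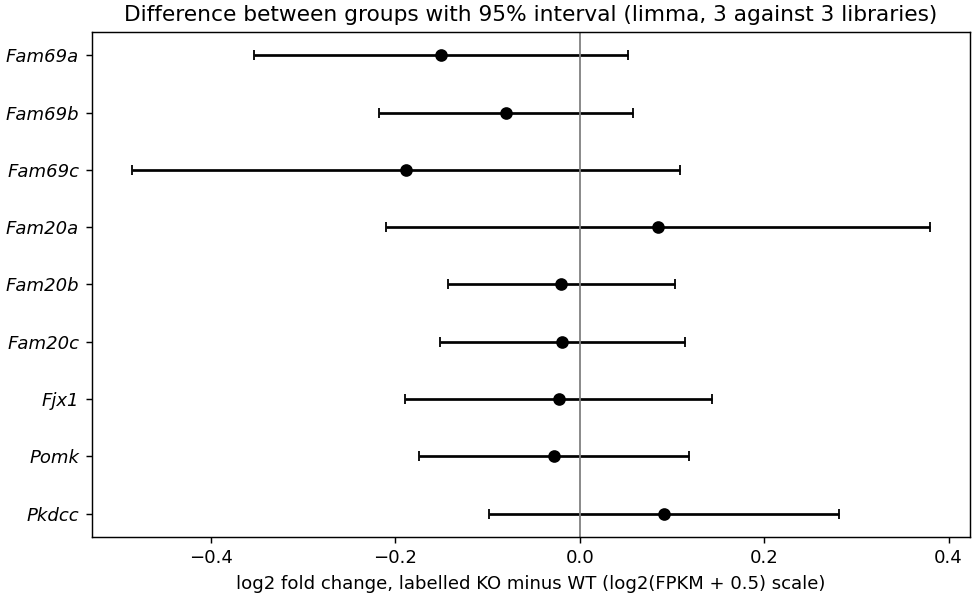
Points are log2 fold changes, libraries labelled KO minus WT, of the 9 genes (horizontal axis, log2(FPKM + 0.5) scale), and bars are 95% intervals from limma over 3 against 3 libraries. All 9 intervals include 0, with Fam69c the lowest estimate at -0.19 and Pkdcc the highest at 0.09.

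Among the Fam20 genes, the xylose kinase gene Fam20b stood at 12.8, 12.8 and 11.8 FPKM over WT replicates 1 to 3, and 12.5, 12.2 and 12.1 FPKM over replicates 1 to 3 labelled KO. As means these are 12.5 ± 0.596 and 12.3 ± 0.190 FPKM (SD, n = 3 each). All 3 libraries labelled KO lay inside the WT range. Its estimate on the log2 scale was -0.02, 95% interval -0.14 to 0.10 (limma adjusted p = 0.999). Fam20b rested on 3427 to 3809 reads per library and had the narrowest interval of the 9 genes, which as a ratio of FPKM + 0.5 runs from 0.905 to 1.07.

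Fam20c, the casein kinase gene, stood at 7.97, 7.47 and 7.34 FPKM over WT replicates 1 to 3, and 7.52, 7.72 and 7.22 FPKM over replicates 1 to 3 labelled KO. Means of WT and KO-labelled libraries were 7.59 ± 0.333 and 7.49 ± 0.249 FPKM (SD, n = 3 each). Replicate 3 labelled KO was lowest of the 6 by a small margin, and the other libraries were interleaved. On the log2 scale KO minus WT was -0.02, 95% interval -0.15 to 0.11 (limma adjusted p = 0.999). Under TPM scaling Fam20b and Fam20c were at 0.000915 and 0.00172, where the median of all genes also moved up, from -0.00417 to 0.0166. Of the summed Fam20 level, Fam20b made up 52.8% in WT and 52.1% in the libraries labelled KO, and Fam20c 32.2% and 31.8%.

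Fam20a, the partner of Fam20c, stood at 3.51, 3.42 and 3.66 FPKM over WT replicates 1 to 3, and 3.99, 3.03 and 4.43 FPKM over replicates 1 to 3 labelled KO. Group means were 3.53 ± 0.122 and 3.81 ± 0.714 FPKM (SD, n = 3 each). The WT libraries were close together, while the libraries labelled KO held both the lowest value, in replicate 2, and the 2 highest. The coefficient of variation (CV, the SD as a percent of the mean) was 3.46% in WT and 18.7% in the libraries labelled KO, where counting noise alone would give 4.75% at the mean number of reads. KO minus WT came to 0.08 in log2 units, 95% interval -0.21 to 0.38 (limma adjusted p = 0.999). Without replicate 2 labelled KO it was 0.22 with an unadjusted p of 0.0345 (limma adjusted p = 1.00), and without replicate 3 it was -0.02, so 1 library decides its sign. The ratio of Fam20a to Fam20c FPKM was 0.441, 0.458 and 0.498 in WT and 0.530, 0.392 and 0.613 in the libraries labelled KO. The 7 meninges and fibroblast genes, with 0 at 0 in any library, summed to between 9.54 and 10.1 FPKM over WT. Over the others they summed to between 8.54 and 10.3 FPKM, lowest in replicate 2 labelled KO as Fam20a was. Slc6a13, Col1a1 and Col1a2 were lowest there, and Dcn, Lum, Col3a1 and Igf2 in other libraries. Of the 5 past the filter, groups did not overlap for 3, against 8.87% of all genes (Col1a1 and Col1a2 lower, Lum higher in KO). In replicate 3 labelled KO, where Fam20a was highest, the 7 genes summed to 9.18 FPKM, below every WT library. The 5 pericyte and smooth muscle genes summed to 22.7, 21.7 and 24.4 FPKM over WT replicates 1 to 3. In replicates 1 to 3 labelled KO they summed to 22.7, 21.3 and 24.9 FPKM, lowest and highest in the same libraries as Fam20a. No single gene of the 5 had both extremes in those libraries. Pdgfrb and Acta2 were lowest in replicate 2 labelled KO and highest in WT replicate 3, and Rgs5 was highest in replicate 3 labelled KO. Kcnj8 went the other way, highest in replicate 2 labelled KO (1.74 FPKM) and lowest in replicate 3 (1.49 FPKM). Tagln was highest in WT replicate 2. By mean centred log2 value the pericyte and smooth muscle list was highest in WT replicate 3, at 0.136, against 0.113 in replicate 3 labelled KO. It was taken up after its values were seen. The part of either list in the Fam20a values was not tested.

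Fjx1, the relative of four-jointed, stood at 32.2, 28.4 and 27.6 FPKM over WT replicates 1 to 3, and 27.9, 30.4 and 28.3 FPKM over replicates 1 to 3 labelled KO. Group means were 29.4 ± 2.44 and 28.9 ± 1.35 FPKM (SD, n = 3 each). The highest and the lowest value were both in WT. Its estimate on the log2 scale was -0.02, 95% interval -0.19 to 0.14 (limma adjusted p = 0.999), and its sign turned to 0.01 with quantile normalization. Fjx1 is a gene of 1 coding exon on chromosome 2 (102449366 to 102452499, minus strand).

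Pomk, the mannose kinase gene, stood at 8.84, 9.40 and 8.50 FPKM over WT replicates 1 to 3, and 8.87, 8.24 and 9.08 FPKM over replicates 1 to 3 labelled KO. As means these are 8.91 ± 0.455 and 8.73 ± 0.436 FPKM (SD, n = 3 each). Replicate 2 labelled KO was lowest and WT replicate 2 highest, with the others interleaved. On the log2 scale KO minus WT was -0.03, 95% interval -0.17 to 0.12 (limma adjusted p = 0.999).

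Pkdcc, the secreted tyrosine kinase gene, stood at 3.40, 3.17 and 3.71 FPKM over WT replicates 1 to 3, and 3.70, 3.44 and 3.91 FPKM over replicates 1 to 3 labelled KO. Means of WT and KO-labelled libraries were 3.43 ± 0.272 and 3.68 ± 0.237 FPKM (SD, n = 3 each). Replicate 3 labelled KO was above every WT library, and the other 2 lay within the WT range. KO minus WT came to 0.09 in log2 units, 95% interval -0.10 to 0.28 (limma adjusted p = 0.999), and it stayed above 0 under 18 of 18 other settings without passing. Fam20a and Pkdcc, the 2 genes with estimates above 0, were both highest in replicate 3 labelled KO.

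**Figure D3:**
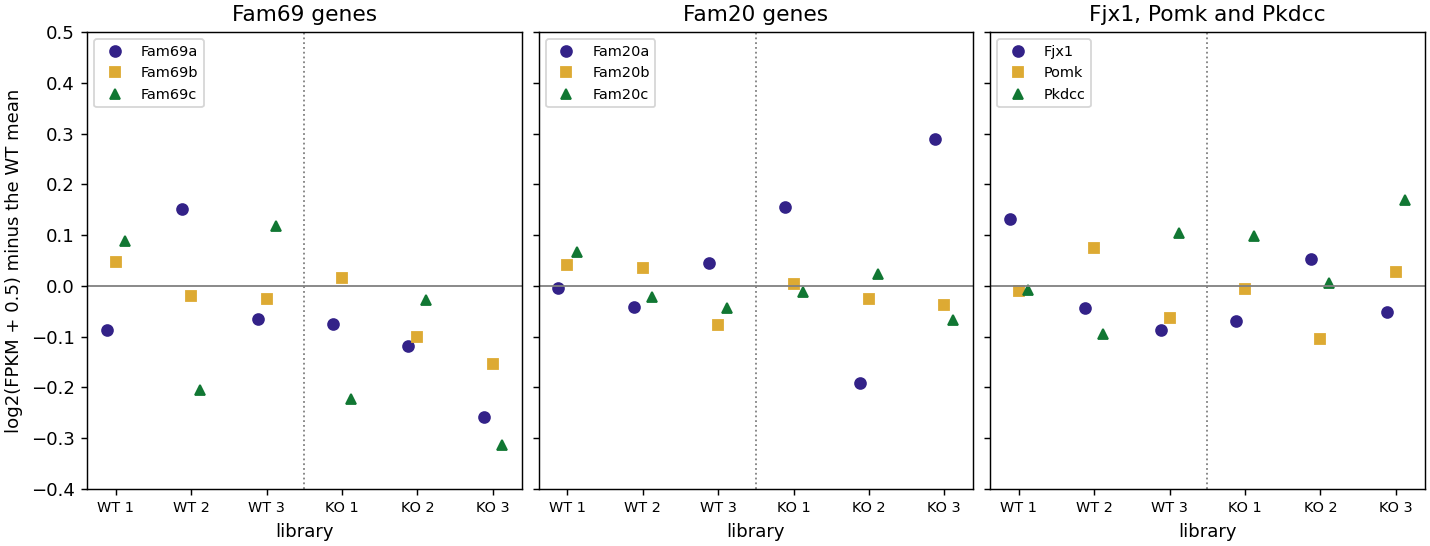
Each point is 1 gene's log2(FPKM + 0.5) in 1 library minus that gene's mean over WT (vertical axis), with libraries along the horizontal axis and a dotted line between WT and the libraries labelled KO. Replicate 3 labelled KO holds the lowest point of each Fam69 gene (-0.26, -0.15 and -0.31) and the highest of Fam20a (0.29) and Pkdcc (0.17).

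Replicate 3 labelled KO was thus the lowest library for Fam69a, Fam69b, Fam69c and Fam20c and the highest for Fam20a and Pkdcc. Without it the log2 fold changes of the Fam69 genes were -0.10, -0.04 and -0.13 for Fam69a, Fam69b and Fam69c, those of Fam20a and Pkdcc -0.02 and 0.05. That library had the most reads summed over genes of the 6, 35065884, and its depth was not tested as a source of these values.

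The CV between libraries of a group was above that of counting noise for every gene and group except Fam20a in WT and Fam20b in the libraries labelled KO. Each CV rests on 3 libraries, and the excess over counting noise was not tested. Some were close to it, such as Fam69b in WT at 2.89% against 2.61% and Pkdcc in the libraries labelled KO at 6.44% against 5.59%. The CV was 15.04% in WT and 13.5% in the libraries labelled KO for Fam69c, where 8.08% would come from counting its reads, and 9.95% and 7.09% for Fam69a against 3.85%. For Fam20b it was 4.78% and 1.54% against 1.67%, and for Fjx1 8.29% and 4.68% against 1.82%.

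**Figure D4:**
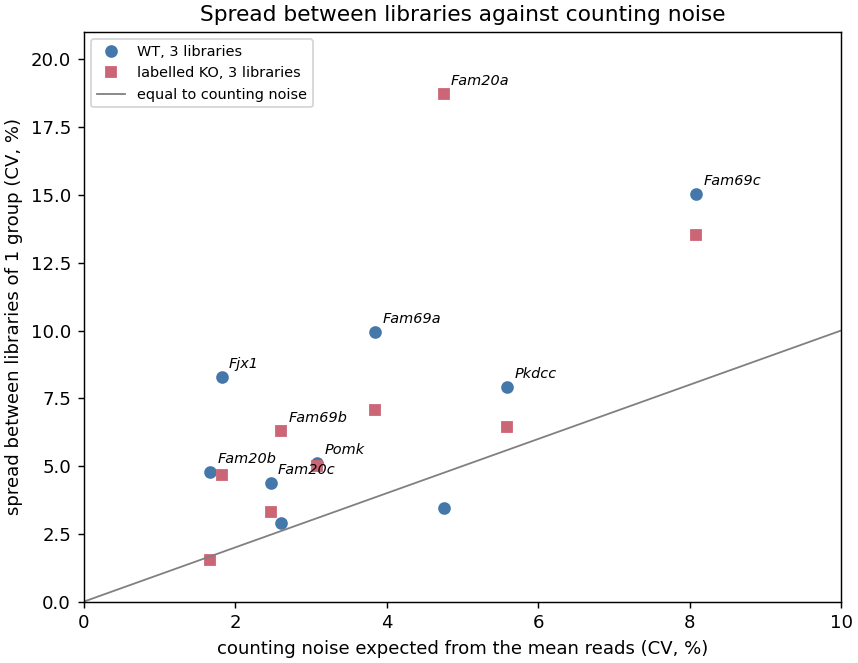
The CV between the 3 libraries of a group (vertical axis, percent) is plotted against the CV that counting alone would give at the gene's mean reads (horizontal axis, percent), with circles for WT, squares for the libraries labelled KO and a line where the 2 are equal. Fam20a in the libraries labelled KO stands highest at 18.7%, and all points lie above the line except Fam20a in WT and Fam20b in the libraries labelled KO.

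The genes whose profile over the 6 libraries was most like that of Fam69c, by the root mean square (RMS) difference of centred log2 values, were Gm37176, Lrrtm4 and Xpa, at 0.0360, 0.0518 and 0.0571 log2 units. Gm37176 is an unclassified transcript, Lrrtm4 encodes a synaptic adhesion protein and Xpa a DNA repair protein. Lrrtm4 stood at 2.32, 1.92 and 2.32 FPKM over WT replicates 1 to 3, and 1.78, 2.05 and 1.79 FPKM over replicates 1 to 3 labelled KO, so it too was low in WT replicate 2 and high in replicate 2 labelled KO. With so few libraries the choice is loose, and without replicate 3 labelled KO 0 of the 3 remained among the nearest. The nearest gene of each of the others was Htr1a for Fam69a (0.0259), Ddx24 for Fam69b (0.0124), Rhbdl1 for Fam20a (0.0280), Stim1 for Fam20b (0.00847), Slc8a2 for Fam20c (0.0138), Usf2 for Fjx1 (0.0248), Cdkal1 for Pomk (0.0131) and Zfp426 for Pkdcc (0.0219), in RMS log2 units.
Among the 9 genes themselves, the profiles of Fam20c, Fam69b and Fjx1 were about equally near to Fam69c, at 0.1445, 0.1453 and 0.1462, and that nearest to Fam20a was Pkdcc, at 0.102 RMS log2 units.

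Pathways linked to these kinases or to the title of the series were read from 6 lists with 54 genes in the table, of which 46 passed the filter. In limma 0 of 46 passed, with 24 estimates below 0 and 22 above, and 1 had an unadjusted p under 0.05 against 3.82% of all genes. Groups did not overlap for 5 of 46, against 8.87% of all genes. These were B4galt7, Pomgnt1, Ppp1r15a, Eif2ak3 and Eif2ak2.

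Of the related secretory kinases, 3 of 4 passed the filter, with a median log2 fold change of 0.03. The secreted kinase-like gene 1190002N15Rik stood at 13.6, 14.2 and 12.2 FPKM over WT replicates 1 to 3, and 13.6, 13.1 and 10.4 FPKM over replicates 1 to 3 labelled KO, again lowest in replicate 3 labelled KO. Its log2 fold change was -0.11, and 0.00295 without that library. Fam198a, a Golgi kinase relative, stood at 1.04 ± 0.0960 and 1.17 ± 0.114 FPKM (SD, n = 3 each).

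Enzymes that build the proteoglycan linker and its chains, the pathway of Fam20b, were all 13 above the filter, with 5 estimates below 0, 8 above and a median of 0.00874. The linker galactosyltransferase gene B4galt7 stood at 7.28, 7.01 and 7.62 FPKM over WT replicates 1 to 3, and 7.67, 7.97 and 7.63 FPKM over replicates 1 to 3 labelled KO, which all lay above WT, the nearest pair by less than 0.01 FPKM. The next enzyme of the linker, B3galt6, stood at 6.31 ± 0.627 and 7.03 ± 0.407 FPKM (SD, n = 3 each), and the log2 fold change had a 95% interval of -0.05 to 0.35.

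Genes of O-mannosyl glycans and dystroglycan, the pathway of Pomk, had 12 of 13 above the filter, with 8 estimates below 0, 4 above and a median of -0.03. Dag1, which encodes dystroglycan, stood at 17.2 ± 0.514 FPKM over WT against 16.5 ± 0.276 FPKM in the libraries labelled KO (SD, n = 3 each), and the log2 fold change had a 95% interval of -0.16 to 0.06. Pomgnt1, which extends the O-mannose that dystroglycan carries, stood at 14.3, 14.5 and 14.6 FPKM over WT replicates 1 to 3, and 13.98, 13.2 and 13.98 FPKM over replicates 1 to 3 labelled KO, all below WT, with a log2 fold change of -0.08 that did not pass (limma adjusted p = 0.999). B4gat1, a glucuronyltransferase of O-mannosyl glycans, stood at 59.6 ± 3.24 and 56.1 ± 4.53 FPKM (SD, n = 3 each).

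Known Fam20c substrates had 7 of 11 above the filter, with 3 estimates below 0, 4 above and a median of 0.01, which was -0.07 without WT replicate 3. The bone and tooth protein Dmp1 passed the filter, at 3.33 ± 0.383 and 3.37 ± 0.134 FPKM (SD, n = 3 each). Those below the filter were Fgf23 (15 to 19 reads per library), Ibsp (2 to 18), Enam (0 to 3) and Amelx, with 0 reads in each of 6. These 4 and Dmp1 were picked after their values were seen. Spp1, which encodes osteopontin, stood at 7.03, 6.801 and 6.02 FPKM over WT replicates 1 to 3, and 6.59, 5.53 and 5.34 FPKM over replicates 1 to 3 labelled KO, overlapping at replicate 1 labelled KO, with a log2 fold change of -0.17. Apoe, the lipid carrier, had a log2 fold change of -0.18 with a 95% interval from -0.39 to 0.04.

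Fat and Dachsous cadherins, the substrates of four-jointed in flies, had 4 of 6 above the filter and a median of 0.01. Fat3, the most abundant of them, stood at 4.78 ± 0.201 FPKM over WT against 5.15 ± 0.449 FPKM in the libraries labelled KO (SD, n = 3 each). Dchs1 stood at 1.43 ± 0.279 and 1.36 ± 0.135 FPKM (SD, n = 3 each), and its estimate of -0.05 turned to 0.06 without WT replicate 3.

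The eIF2α kinases, the substrate gene Eif2s1 and the phosphatase subunits, which bear on the stress granules of the title, had 7 of 7 above the filter, with 5 estimates below 0, 2 above and a median of -0.00755, which was -0.05 without replicate 3 labelled KO. Ppp1r15a, the inducible phosphatase subunit, stood at 4.86, 5.08 and 4.54 FPKM over WT replicates 1 to 3, and 4.33, 3.67 and 3.99 FPKM over replicates 1 to 3 labelled KO, all below WT. In the main fit its log2 fold change of -0.25 had the 1 unadjusted p under 0.05 of the 6 lists, 0.0163, and did not pass (limma adjusted p = 0.999). Eif2ak3, the kinase PERK, stood at 5.48, 5.53 and 5.30 FPKM over WT replicates 1 to 3, and 5.11, 5.205 and 5.28 FPKM over replicates 1 to 3 labelled KO, and Eif2ak2, the kinase PKR, 0.764 ± 0.0391 and 0.893 ± 0.0621 FPKM (SD, n = 3 each). Eif2s1 had an estimate of 0.03 that turned to -0.05 without WT replicate 3.

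**Figure D5:**
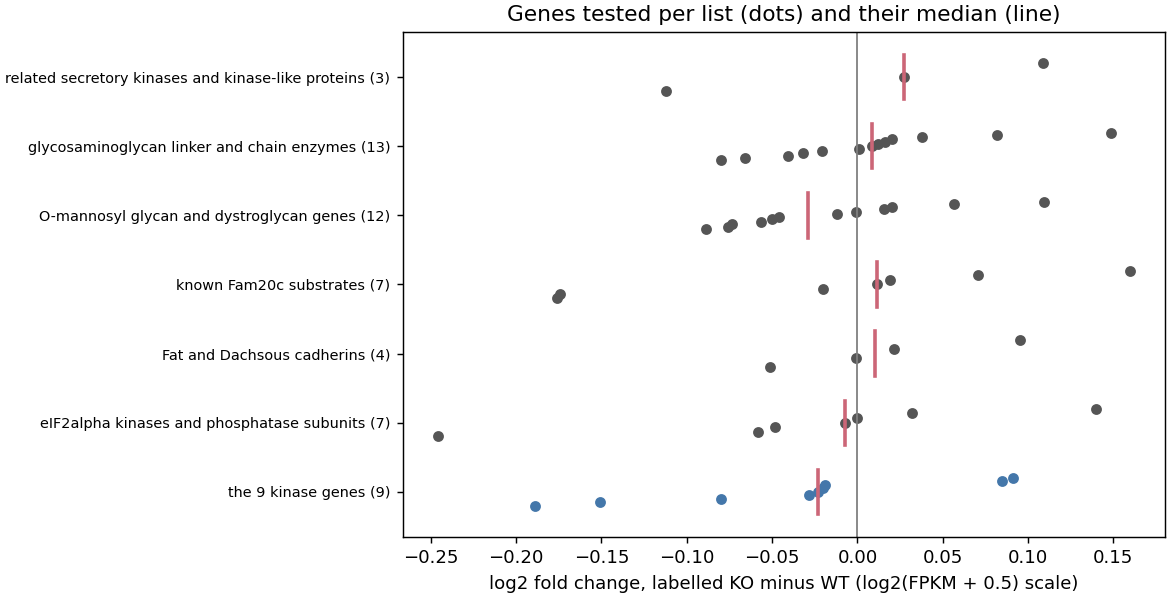
Dots are log2 fold changes, libraries labelled KO minus WT (horizontal axis, log2(FPKM + 0.5) scale), of the genes tested in each list, with their number in parentheses, and lines are list medians. The medians lie between -0.03 and 0.03, and the 9 kinase genes (bottom row) run from -0.19 to 0.09.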

How the data were processed

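Cortex RNA was extracted with Trizol and made into libraries with an Illumina TruSeq kit, per the labels' protocols. The submitters' processing notes name Bowtie and mm10. No source used here states the counting program, strand handling or annotation release. The authors deposited FPKM values per gene and library, with gene position and length. Values times length were whole multiples of 1 step in 100% of cases (tolerance 0.001), which gave the reads.

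Genes averaging 0.5 FPKM or more (15694) were tested as log2(FPKM + 0.5) with limma 3.58.1 in R 4.3.3, with a variance trend, no block, two-sided, Benjamini-Hochberg adjustment and a threshold of 0.05. The fit was tested on simulated data. GENCODE M21 gave exons and transcripts, and 98.3% of rows had its positions. Biopython 1.88 aligned coding sequences, and matplotlib 3.10.9 drew the plots. In the 2 most alike libraries, WT replicates 1 and 2, the median squared difference in reads was 3.08 times sampling noise, so all 6 were kept as separate.

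Named were the 9 genes, the 3 profiles nearest Fam69c and 1 nearest each other gene, genes overlapping on the other strand, and up to 2 genes per list by smallest p, with Dag1, Eif2s1 and Eif2ak3 in any case. Gm20532, Ttr, Dmp1, Fgf23, Ibsp, Enam and Amelx were named after their values were seen, as were the single pericyte, smooth muscle, meninges and fibroblast genes. Members and lists were chosen with earlier results of these data known.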

Additional observations from a re-analysis of the deposited data

How the results depend on the processing

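Under 18 other settings (pseudocounts of 0.1 and 1, no filter or 1 FPKM, TPM, median and quantile scaling, no variance trend, sample weights, voom on recovered reads, a replicate block, each library left out, and WT replicate 3 with KO replicate 1 left out together), 0 of the 9 genes passed, and 1 gene of the table passed with that pair left out. Fam69c ran from -0.29 (without WT replicate 2) to -0.11 (sample weights). Deviations of same-numbered libraries from their group means correlated at r = 0.0816, 0.0135 and 0.210 for numbers 1, 2 and 3. For unlike numbers r ran from -0.164 (WT 3 with KO 1) to 0.113 (WT 2 with KO 1). Deviations from a mean of 3 libraries are tied to each other, so these values cannot show whether the numbers pair the libraries. With the replicate block Fam69c was -0.19 (limma adjusted p = 0.911) with 0 genes past the threshold. That fit had 837 genes at an unadjusted limma p under 0.05, against 599 without the block. Of 162 values for the 9 genes, 12 changed sign, in 5 genes. With sample weights Fam20a was -0.00013, Dchs1 0.0279 and Eif2s1 -0.0154, with TPM scaling, which moved the median of all genes from -0.00417 to 0.0166 and the share below 0 from 52% to 42.5%, Fam20b was 0.000915 and Fam20c 0.00172, and with quantile normalization Fjx1 was 0.0139. With the pair left out Dchs1 was 0.114 and Eif2s1 -0.0589. Unadjusted limma p of Apoe, Spp1, B4gat1 and B3galt6, not under 0.05 in the main fit, fell below it under some settings. The lowest were 0.0104, 0.00369, 0.0190 and 0.0428 in that order, and none of these genes passed in any setting. That of Ppp1r15a was 0.0594 without WT replicate 2 and 0.0571 without replicate 2 labelled KO. Leaving out 1 library, estimates ran from -0.194 to -0.0750 for Fam69a, -0.128 to -0.0424 for Fam69b, 0.0439 to 0.143 for Pkdcc, -0.0181 to 0.222 for Fam20a, -0.0588 to 0.000852 for Fam20b, -0.0410 to 0.0145 for Fam20c, -0.0667 to 0.0426 for Fjx1, -0.0602 to 0.0105 for Pomk, -0.185 to 0.00295 for 1190002N15Rik, -0.137 to 0.0613 for Dchs1 and -0.0470 to 0.0984 for Eif2s1. The cause was not tested. Low read numbers limit Fam69c most, at 128 to 184 per library.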
